A study of Homo sapiens with 6 samples.

Results

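The genes described here are 59 mitosis and G2/M genes taken from a list by name, out of 35583 genes to which the transcripts of 6 libraries could be joined, and all 59 were among the 15224 genes that passed the filter on low counts. The cells were Rh30, an alveolar rhabdomyosarcoma line positive for the PAX3-FOXO1 fusion, in which the forkhead factor FOXO1 is joined to the DNA-binding part of PAX3. In 3 libraries DDX5, a DEAD-box RNA helicase, had been knocked down (labelled siDDX5), and 3 libraries were controls (labelled control in the knockdown field); both groups were the same fusion-positive line. The sources used here give neither the siRNA sequence, nor the time after knockdown, nor what the control cells received, and the design text calls the replicates biological. A single cell line was used, so the replicates are not separate tumours.

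Mitosis is driven by CDK1 bound to cyclins A and B. Its targets build the spindle, attach chromosomes to it, and hold back separation until every chromosome is attached; then the anaphase-promoting complex marks securin and cyclin B for destruction. Most of these proteins are made from messages that accumulate in G2 and M. Their genes are silenced in resting cells by the DREAM complex and switched on by MuvB with MYBL2 and by FOXM1, which reach them through the cell cycle homology region, a short promoter element, often near a CCAAT box bound by NF-Y. The level of these messages is therefore widely used to describe how much a tumour cell population is dividing.

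The libraries held between 18202402 and 26156858 estimated counts, the siDDX5 libraries being the 3 with the fewest. Counts are given below as TMM-normalised CPM, counts scaled to a common library total, for comparing libraries, and as TPM, a share of all transcripts that takes length into account, for comparing genes. DDX5 (chr17:64499616-64508199, minus strand, GRCh38 in GENCODE release 29, as for all gene positions below) stood at 1352, 1434 and 1137 CPM in control replicates 1 to 3 and 549, 504 and 396 CPM in siDDX5 replicates 1 to 3. It fell by 1.44 ± 0.15 on the log2 scale (± is the standard error of the fit throughout; edgeR quasi-likelihood test, Benjamini-Hochberg adjusted p = 0.0106), and all siDDX5 libraries lay below all controls. In 6 of 17 alternative settings the DDX5 adjusted p was above 0.05, at 0.0531 to 0.0953, with the same direction. Among markers of alveolar rhabdomyosarcoma, MYOD1 (140 and 132 TPM as means of control and siDDX5), MYOG (118 and 103 TPM) and DES (467 and 421 TPM) were high. FGFR4 (221 and 190 TPM) and CHRNA1 (172 and 165 TPM) were high as well. Lower were MYCN (22.2 and 23.7 TPM), PAX3 (21.7 and 17.4 TPM), FOXO1 (13.9 and 11.3 TPM) and NOS1 (5.64 and 6.58 TPM). TFAP2B was listed at 0 in all 6 libraries. Of 12 markers of epithelial, blood, endothelial and fibroblast cells, 9 had group means of at most 1.14 TPM (HBB was listed at 0), and DCN (1.66 and 1.74 TPM), PTPRC (2.92 and 1.70 TPM) and PECAM1 (6.03 and 5.09 TPM) were higher.

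The promoters of these genes often hold these elements, and 5 are printed because they show its usual forms. RefSeq start windows on GRCh38.p14, 250 bases before to 50 after an annotated start, were held for 51 of the 59 genes (65 windows); AURKA, BIRC5, BUB3, FOXM1, PBK, TPX2, TTK and UBE2C had no entry. Each line gives the 120 bases before one start, 5′ to 3′ on the strand of the gene, with TTTGAA (the core of the cell cycle homology region) or its reverse complement TTCAAA, and CCAAT or its reverse complement ATTGG, in capitals.
CCNB2 (chr15:59105026-59105145, plus strand): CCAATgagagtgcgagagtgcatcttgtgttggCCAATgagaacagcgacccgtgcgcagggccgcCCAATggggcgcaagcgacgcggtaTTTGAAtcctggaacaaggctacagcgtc
CDC25C (chr5:138331805-138331924, minus strand): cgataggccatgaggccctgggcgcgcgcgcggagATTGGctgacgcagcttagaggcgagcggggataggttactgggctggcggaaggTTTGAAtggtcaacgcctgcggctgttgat
MKI67 (chr10:128126424-128126543, minus strand): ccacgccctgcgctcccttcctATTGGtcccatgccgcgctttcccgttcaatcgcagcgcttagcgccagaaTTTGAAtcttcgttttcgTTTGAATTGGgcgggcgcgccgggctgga
KIF23 (chr15:69414229-69414348, plus strand): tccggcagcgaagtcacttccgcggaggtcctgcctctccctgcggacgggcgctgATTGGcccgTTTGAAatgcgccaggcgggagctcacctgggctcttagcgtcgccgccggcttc
ANLN (chr7:36389742-36389861, plus strand): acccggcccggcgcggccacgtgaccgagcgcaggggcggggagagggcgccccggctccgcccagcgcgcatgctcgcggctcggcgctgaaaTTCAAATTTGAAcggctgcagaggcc

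CCNB2, one of the mitotic B-type cyclins, has 3 CCAAT boxes, 120, 87 and 54 bases before the start, followed by TTTGAA at 29. CDC25C has 1 CCAAT box, on the other strand, at 85 and TTTGAA at 30. In MKI67 there are 2 TTTGAA copies, at 47 and 29, and the second overlaps an ATTGG that begins at 24. In KIF23 the ATTGG at 64 and the TTTGAA at 55 are 4 bases apart. ANLN has TTTGAA at 20, directly after a TTCAAA on the same strand, and no CCAAT box in these 120 bases.

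TTTGAA on either strand was in the 300-base windows of 38 of the 51 genes (74.5%), against 14.1% of the 10998 tested genes with a window and 18.2% of all 27305 genes in the table. Counted by window, the shares were 63.1% for these genes and 15.2% for all 35116 windows. CCAAT on either strand was in 40 of 51 (78.4%), against 43.3% of tested genes and 39.7% of all genes. Both motifs were in 30 of 51 (58.8%), against 5.86% of tested genes. Of the 40 TTTGAA sites on the strand of the gene, counted in each window, 23 began between 1 and 70 bases before the start. In CDC25C and ECT2 windows overlap, and a site there was counted in each. The positions of sites in other genes were not counted. All of these motifs are matches of letters and say nothing of binding. The 38 genes with TTTGAA had a median log2 fold change of -0.0008 between siDDX5 and control, and the 13 with a window but no match had 0.008. The 8 members without a window, whose motifs are unknown here, had a median of 0.14, with 7 above 0 and 1 below.

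**Figure D1:**
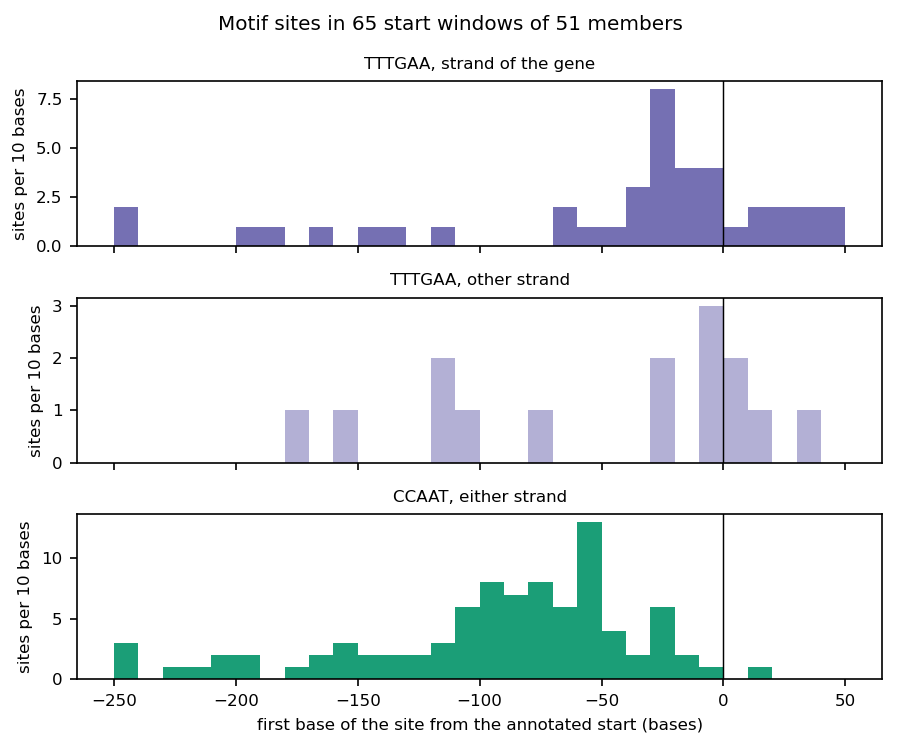
Distance of each motif's first base from the annotated start (x axis, bases) and number of sites per 10 bases (y axis) in 65 start windows of 51 mitosis and G2/M genes. TTTGAA on the strand of the gene is most frequent in the 30 to 20 bases before the start, and CCAAT is spread further upstream.

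These genes were abundant in both groups. The median member stood at 109 TPM over the 6 libraries, against 17.4 TPM for all tested genes. ANLN, the actin and septin scaffold of the cleavage furrow, was the most abundant at 505 TPM, followed by PTTG1 (securin, 379 TPM), SMC4 (a condensin ATPase, 374 TPM) and TOP2A (the topoisomerase that untangles sister DNA, 360 TPM). The lowest were CDC25C (25.6 TPM) and KIF14 (30.5 TPM). PTTG1 and KIF4A have near-identical intronless copies elsewhere in the genome, so their counts depend on how the quantifier divided shared reads. Together the 59 genes made up 0.83%, 0.814% and 0.769% of TPM in control replicates 1 to 3 and 0.877%, 0.758% and 0.744% in siDDX5 replicates 1 to 3. The group means, 0.804% ± 0.031 (SD, n = 3) and 0.793% ± 0.073 (SD, n = 3), differed by less than the spread between replicates, and the highest and the lowest library were both siDDX5.

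With DDX5 knocked down, none of the 59 genes was called at an adjusted p under 0.05 by edgeR, against 0.164% of all tested genes (25 of 15224: 8 higher, 0.0525%, and 17 lower, 0.112%). The labels do not say what a replicate number marks. Same-numbered libraries deviated together and were taken as pairs. With the replicate as a block edgeR called 395 genes (2.59%, with 174 higher, 1.14%, and 221 lower, 1.45%) and again none of the 59. DESeq2 and limma-trend on log2(TPM + 1) also called none of the 59. Of all genes, DESeq2 called 2.99% of the 10795 given an adjusted p, and limma-trend called 1. At an unadjusted p under 0.05 DESeq2 had 3 of the 59, against 1645 of 15224 genes. Limma-trend had 2 of the 59, against 1272 of 14872 genes. At an unadjusted p under 0.05 edgeR had 3 of 59 (5.08%), against 11.4% of all genes: CDC25C and TTK with higher and MKI67 with lower levels in siDDX5 (5.37% of all genes were higher and 6% lower at that p). With the replicate block this count was 9 of 59 (15.3%; 6 higher and 3 lower), against 20.5% of all genes (10.2% higher and 10.3% lower).

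The fold changes were small and their intervals narrow. They ran from -0.39 (MKI67) to 0.31 (CDC25C) on the log2 scale with a median of 0.03, and 33 lay above 0 and 26 below. The median of all tested genes was -0.0016, and that of the 6195 tested genes at or above the lowest member's TPM was 0.035. For 57 of the 59 (96.6%) the fold change was under 0.25 in size, against 69.2% of all tested genes and 80.1% of those 6195, whose median level was 57.2 TPM. The 95% interval lay within 2-fold in either direction for all 59, and within 1.5-fold for 56. The widest bounds were -0.74 (MKI67, lower) and 0.61 (CDC25C, upper), and larger changes than these lay outside the intervals. In bulk RNA, fewer cells in mitosis and less message per cell cannot be told apart. On the log2(TPM + 1) scale 24 of the 59 lay above 0 and 35 below, with a median of -0.023. The median of all genes on that scale was -0.047, so counts above and below 0 there, also those by role, are read against it. Neither direction can be assigned to the genes as a group.

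**Figure D2:**
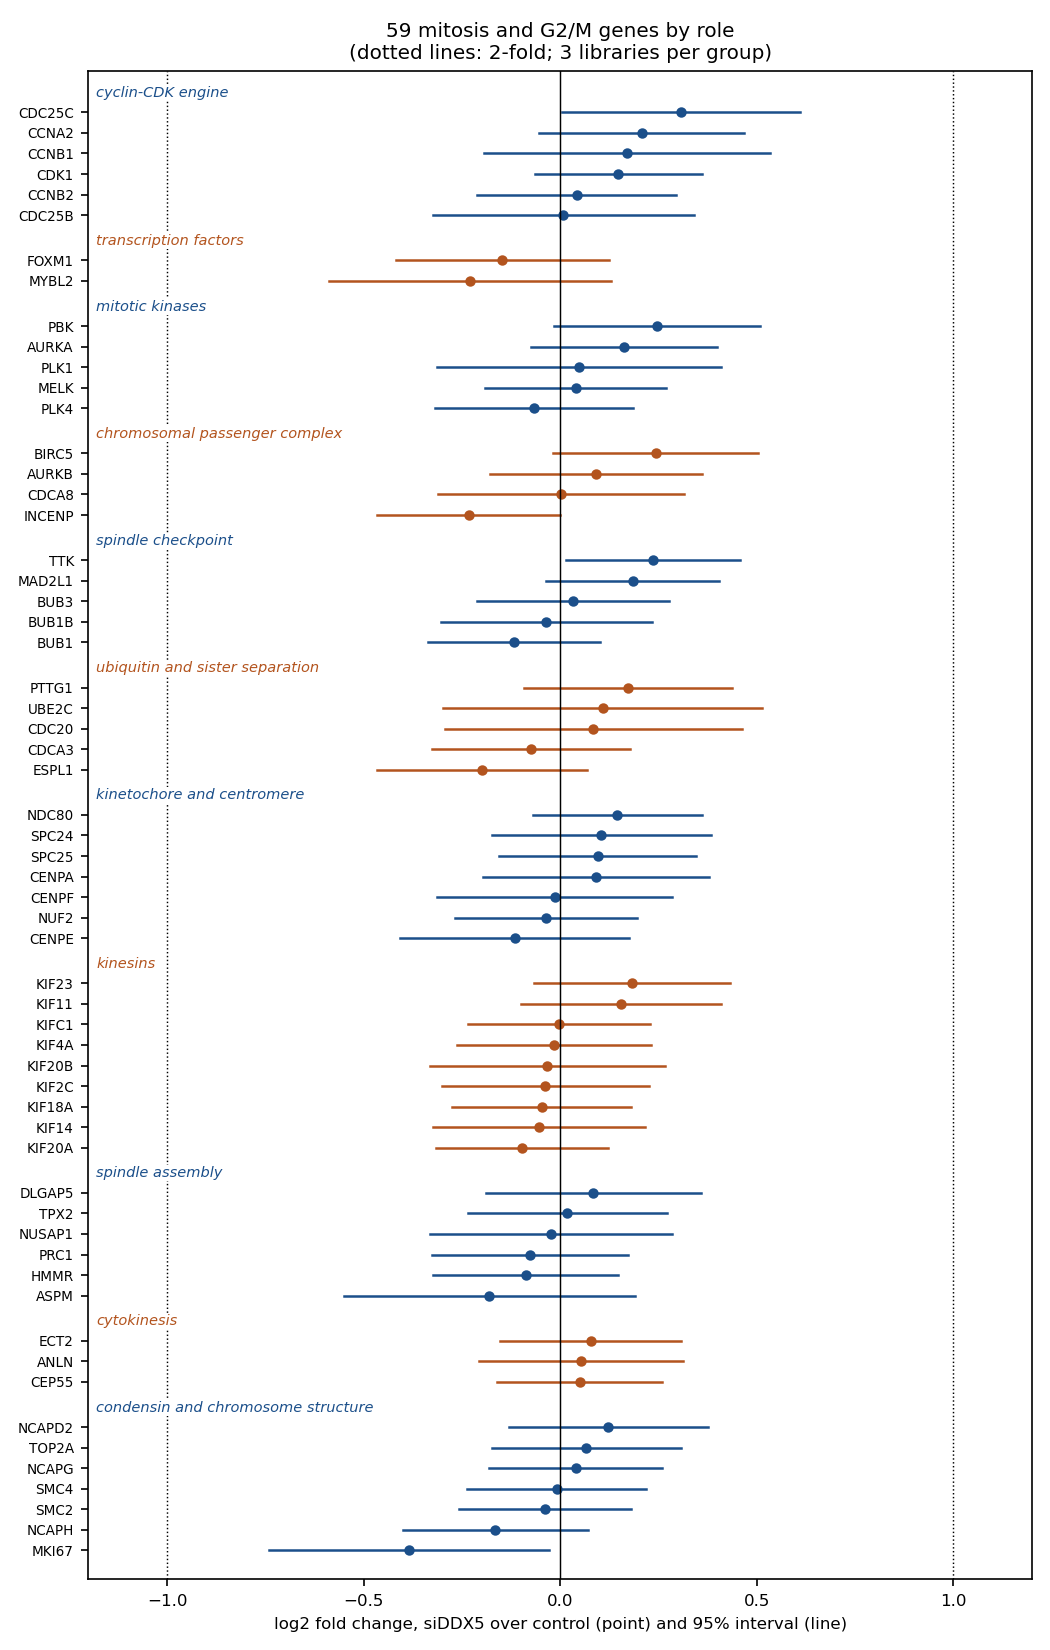
Log2 fold change of siDDX5 over control (x axis; point) with its 95% interval (line) for the 59 genes, grouped by role and ordered by value within a role. All intervals lie between the dotted lines at 2-fold, and 56 of the 59 cross 0.

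The groups of 3 libraries did not overlap for 9 of the 59 genes (15.3%), against 18% of all tested genes. In siDDX5, 7 of the 9 were higher and 2 lower, against 8.87% and 9.16% of all genes. They were CDC25C, CDK1, PBK, BIRC5, MAD2L1, TTK and NDC80 on the higher side, and INCENP and NCAPH on the lower. Within same-numbered replicate pairs, 15 genes were higher in siDDX5 in all 3 pairs and 11 lower, which is 44.1% of the members against 42.9% of all tested genes (21.8% higher and 21.1% lower). Both shares were near those of all genes.

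The cyclin-CDK engine comprised CDK1, the cyclins CCNA2, CCNB1 and CCNB2, and the phosphatases CDC25B and CDC25C, which remove the inhibitory phosphates from CDK1. All 6 log2 fold changes were above 0, from 0.01 (CDC25B) to 0.31 (CDC25C), with a median of 0.16 and none called; on the TPM scale 4 of 6 were above 0, without control replicate 3 it was also 4 of 6, and without siDDX5 replicate 2 it was 3 of 6 with a median of 0.06. CDC25C (chr5:138285265-138338355, minus strand) was at 22.1, 18.5 and 16.9 CPM in control replicates 1 to 3 and 24.2, 24.4 and 22.7 CPM in siDDX5 replicates 1 to 3. The log2 fold change was 0.31 ± 0.14 (edgeR adjusted p = 0.435), with an unadjusted p of 0.0478, and the 3 siDDX5 libraries lay above the 3 controls by a small margin. CCNB1, cyclin B1 and the most abundant of the 6, was at 179, 196 and 151 CPM in control replicates 1 to 3 and 175, 248 and 169.9 CPM in siDDX5 replicates 1 to 3. Its groups overlapped, and siDDX5 replicate 2 stood above the other 5 libraries (log2 fold change 0.17 ± 0.16, edgeR adjusted p = 0.739). Without that library the log2 fold change of CCNB1 was -0.03. CDK1 itself, singled out after its values were seen, was at 166, 157 and 162 CPM in control replicates 1 to 3 and 172, 186 and 180.0 CPM in siDDX5 replicates 1 to 3 (log2 fold change 0.15 ± 0.09, edgeR adjusted p = 0.593).

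The transcription factors of the G2/M programme, FOXM1 and MYBL2, were both below 0, at -0.15 and -0.23, and both were lower in all 3 replicate pairs. Without control replicate 1 the median of these 2 genes went from -0.19 to -0.04. FOXM1 stood at 383, 344 and 298 CPM in control replicates 1 to 3 and 312, 330.4 and 283 CPM in siDDX5 replicates 1 to 3. The groups overlapped, with the highest value in control replicate 1 and the lowest in siDDX5 replicate 3 (log2 fold change -0.15 ± 0.12, edgeR adjusted p = 0.690). Within pairs 1, 2 and 3 FOXM1 differed by -0.30, -0.06 and -0.07, and without control replicate 1 its log2 fold change was -0.05. MYBL2, the B-MYB partner of MuvB, averaged 298 ± 68.9 CPM (SD, n = 3) in control and 254 ± 24.0 CPM (SD, n = 3) in siDDX5. Its groups overlapped (log2 fold change -0.23 ± 0.16, edgeR adjusted p = 0.624), and within pairs it differed by -0.47, -0.05 and -0.11.

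Of the mitotic kinases, 4 of 5 had a fold change above 0: PBK, AURKA (spindle pole maturation), PLK1 (mitotic entry and many later steps) and MELK; PLK4, which starts centriole duplication, was at -0.07. PBK was the most abundant of them at 145 TPM. Its libraries stood at 104, 107 and 91.2 CPM in control replicates 1 to 3 and 116, 133 and 109 CPM in siDDX5 replicates 1 to 3. These groups did not overlap, but PBK was not called (log2 fold change 0.25 ± 0.12, edgeR adjusted p = 0.468), also with the replicate block (adjusted p = 0.147).

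The chromosomal passenger complex corrects faulty attachments, through the kinase AURKB with INCENP, BIRC5 (survivin) and CDCA8 (borealin). Its 4 subunits did not go one way: BIRC5 was at 0.24, AURKB at 0.09, CDCA8 at 0.00 and INCENP, the scaffold that binds AURKB, at -0.23, none called. Without control replicate 3 or siDDX5 replicate 2, 2 of the 4 were above 0, with medians of -0.05 and -0.02. AURKB stood at 82.5, 78.6 and 67.4 CPM in control replicates 1 to 3 and 74.9, 90.3 and 78.2 CPM in siDDX5 replicates 1 to 3. The highest and the second lowest AURKB library were both siDDX5 (log2 fold change 0.09 ± 0.12, edgeR adjusted p = 0.821). INCENP and BIRC5, singled out after their values were seen, had groups that did not overlap: INCENP averaged 151 ± 9.46 CPM (SD, n = 3) in control and 128 ± 8.67 CPM (SD, n = 3) in siDDX5, and BIRC5 averaged 162 ± 15.6 CPM (SD, n = 3) in control and 192 ± 17.8 CPM (SD, n = 3) in siDDX5. Their edgeR adjusted p values were 0.441 and 0.473, and 0.160 and 0.206 with the replicate block.

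The spindle checkpoint genes BUB1, BUB1B, BUB3, MAD2L1 and TTK make the signal that holds back anaphase. Of the 5, 3 were above 0. TTK (MPS1, the kinase that starts the signal; chr6:80003887-80042527, plus strand) stood at 90.6, 94.7 and 92.4 CPM in control replicates 1 to 3 and 107, 117 and 103 CPM in siDDX5 replicates 1 to 3. All siDDX5 libraries were above all controls, and the controls were within a narrow range (log2 fold change 0.24 ± 0.10, edgeR adjusted p = 0.413); the unadjusted p was 0.039. MAD2L1 (MAD2, part of the inhibitor of the anaphase-promoting complex) stood at 125, 115 and 112 CPM in control replicates 1 to 3 and 136, 132 and 129.9 CPM in siDDX5 replicates 1 to 3. These groups did not overlap either (log2 fold change 0.18 ± 0.10, edgeR adjusted p = 0.515). BUB1 and BUB1B, the kinase and pseudokinase of the same pathway, were at -0.12 and -0.04, with adjusted p of 0.694 and 0.940. On the log2(TPM + 1) scale 2 of the 5 were above 0, with a median of -0.070 against -0.047 for all genes.

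The genes of ubiquitin marking and sister separation were CDC20 (the mitotic activator of the anaphase-promoting complex), UBE2C (its ubiquitin-conjugating enzyme), CDCA3, PTTG1 (securin) and ESPL1 (separase, the protease that cuts cohesin). Of these 5, 3 were above 0, and values ran between -0.20 (ESPL1) and 0.17 (PTTG1) with a median of 0.08. Without siDDX5 replicate 2 it was 1 of 5, with a median of -0.12, and without control replicate 3 it was 2 of 5. PTTG1 was at 114, 105 and 99.9 CPM in control replicates 1 to 3 and 112, 137 and 110.4 CPM in siDDX5 replicates 1 to 3. Like CCNB1 it was highest in siDDX5 replicate 2, and its groups overlapped (log2 fold change 0.17 ± 0.12, edgeR adjusted p = 0.620). Without that library PTTG1 was at 0.07. UBE2C and CDC20 were also highest in that library, at 85.6 and 262 CPM, against 54.1 to 72.7 and 168 to 217 CPM in the other 5.

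Of the kinetochore and centromere genes, the 4 subunits of the NDC80 complex, which grips the microtubule, were at 0.15 (NDC80), 0.10 (SPC24), 0.10 (SPC25) and -0.04 (NUF2). CENPA, the centromeric histone, was at 0.09, and the large proteins CENPE (a kinetochore motor) and CENPF were at -0.12 and -0.01. CENPF stood at 913, 1056 and 1048 CPM in control replicates 1 to 3 and 1157, 859 and 972 CPM in siDDX5 replicates 1 to 3. Control replicate 1 and siDDX5 replicate 2 were the lowest and siDDX5 replicate 1 the highest, so pair 1 and pair 2 pointed in opposite directions (log2 fold change -0.01 ± 0.13, edgeR adjusted p = 0.983). On the log2(TPM + 1) scale CENPF was at 0.13.

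The 9 kinesins move chromosomes and slide or shorten spindle microtubules. Of these, 7 were below 0, all between -0.10 (KIF20A) and -0.003 (KIFC1), and 2 were above: KIF11 (Eg5, which pushes the poles apart) at 0.15 and KIF23 (MKLP1, of the central spindle) at 0.18. This count turned with single libraries and with the kind of count: 8 of the 9 were above 0 without siDDX5 replicate 3, 6 without control replicate 2, and 5 with counts from length-scaled TPM. KIF23 was the most abundant, at 249, 245 and 220.4 CPM in control replicates 1 to 3 and 292, 278 and 241 CPM in siDDX5 replicates 1 to 3. Its groups overlapped through siDDX5 replicate 3 (log2 fold change 0.18 ± 0.11, edgeR adjusted p = 0.572). The other spindle genes were TPX2, NUSAP1, ASPM, HMMR, DLGAP5 and PRC1, of which DLGAP5 and TPX2 were above 0; the median of these 6 was -0.05, and 0.04 without control replicate 1. TPX2, which activates AURKA on microtubules, stood at 636, 539 and 545 CPM in control replicates 1 to 3 and 617, 587 and 537 CPM in siDDX5 replicates 1 to 3. The 6 libraries were interleaved (log2 fold change 0.02 ± 0.11, edgeR adjusted p = 0.971).

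Cytokinesis was represented by ANLN, ECT2 (the exchange factor that activates RhoA at the furrow) and CEP55 (the midbody protein that recruits the abscission machinery). All 3 were at 0.05 to 0.08 in CPM. On the log2(TPM + 1) scale all 3 were below 0, with a median of -0.021 against -0.047 for all genes. ANLN stood at 954, 1029 and 904 CPM in control replicates 1 to 3 and 1034, 1069 and 891 CPM in siDDX5 replicates 1 to 3. ECT2 stood at 198, 195 and 189 CPM in control replicates 1 to 3 and 223, 204 and 189 CPM in siDDX5 replicates 1 to 3. In both genes siDDX5 replicate 3 was the lowest library, and the groups overlapped (log2 fold change 0.05 ± 0.12, edgeR adjusted p = 0.900 for ANLN, log2 fold change 0.08 ± 0.10, edgeR adjusted p = 0.823 for ECT2).

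Condensin, which compacts mitotic chromosomes, was measured by NCAPG, NCAPH, NCAPD2, SMC2 and SMC4, and chromosome structure by TOP2A and MKI67. Condensin subunits ran from -0.17 (NCAPH) to 0.12 (NCAPD2). SMC4 stood at 547, 609 and 578 CPM in control replicates 1 to 3 and 601, 567 and 555 CPM in siDDX5 replicates 1 to 3, and its libraries were interleaved (log2 fold change -0.01 ± 0.10, edgeR adjusted p = 0.985). MKI67 encodes Ki-67, the coat protein of mitotic chromosomes that is stained to count cycling cells (chr10:128096659-128126385, minus strand). It stood at 939, 865 and 856 CPM in control replicates 1 to 3 and 862, 559 and 616 CPM in siDDX5 replicates 1 to 3. The log2 fold change was -0.39 ± 0.16 (edgeR adjusted p = 0.406), with an unadjusted p of 0.0369. Replicates 2 and 3 of siDDX5 lay below all the controls, while siDDX5 replicate 1 lay among them. The fit with the replicate block put MKI67 at -0.41 ± 0.12 (adjusted p = 0.099), the smallest adjusted p of the 59 in that fit. Leaving out siDDX5 replicate 1 gave -0.59 (adjusted p = 0.152), and leaving out siDDX5 replicate 2 gave -0.26 (adjusted p = 0.671).

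**Figure D3:**
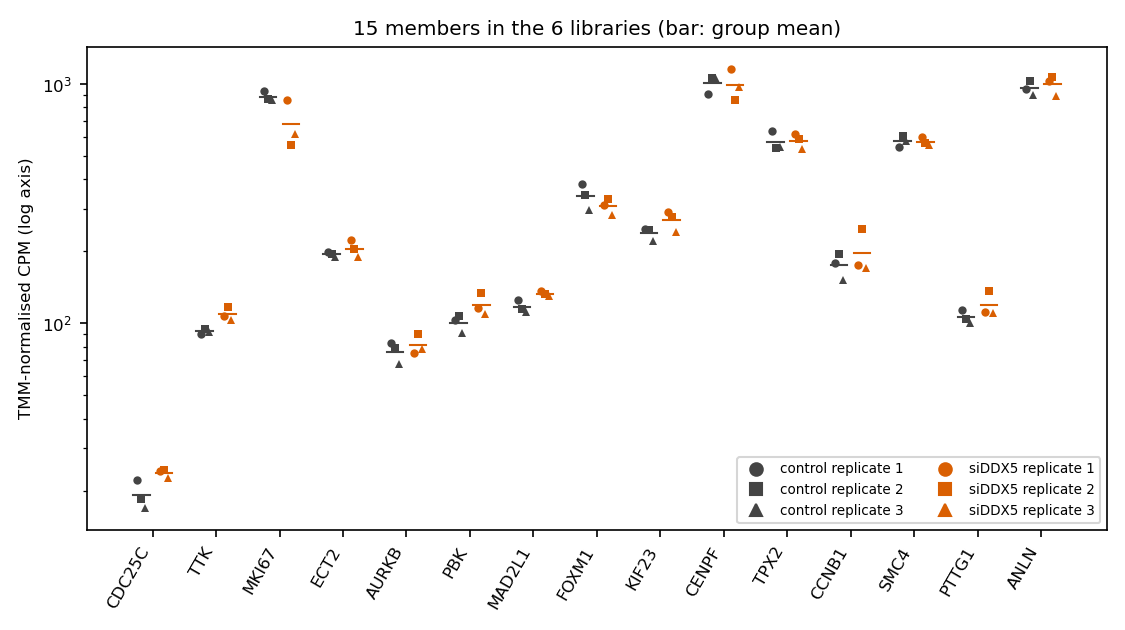
TMM-normalised CPM (y axis, log scale) of 15 mitosis and G2/M genes in the 3 control (grey) and 3 siDDX5 (orange) libraries, with the group mean as a bar and the symbol giving the replicate number; genes are ordered by mean TPM. Groups are separate for CDC25C, TTK, PBK and MAD2L1, and in MKI67 siDDX5 replicates 2 and 3 lie below the rest.

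The differences within same-numbered pairs varied with the length of the message. Across the 59 genes, Pearson's r between the log2 difference (siDDX5 minus control) and the log10 of transcript length was 0.34 in pair 1, -0.69 in pair 2 and -0.59 in pair 3, so the direction in pair 1 was opposite to that in the others. The points share their libraries, and the same signs were seen over the 6195 genes at or above the lowest member's TPM (0.31, -0.41 and -0.28). The 8 longest members, TOP2A, ESPL1, KIF20B, KIF14, CENPE, CENPF, ASPM and MKI67 (5681 to 12037 bases), had median differences of 0.25, -0.29 and -0.18 in pairs 1, 2 and 3. The 8 shortest, PTTG1, UBE2C, AURKB, SPC25, CENPA, CCNB2, CCNB1 and CDC20 (723 to 1639 bases), had -0.03, 0.27 and 0.05. In pair 1 the differences also ran with GC content (Spearman's rho = -0.80 over the 59 genes, and -0.61 over the 6195), while rho was 0.21 and 0.13 in pairs 2 and 3.

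Single genes show the same layout. ASPM, the spindle pole protein mutated in primary microcephaly, differed by 0.27, -0.49 and -0.41 in pairs 1, 2 and 3. CENPE differed by 0.25, -0.42 and -0.20, and CENPF by 0.34, -0.30 and -0.11. UBE2C, among the shortest messages, differed by -0.30, 0.61 and -0.04. MKI67, the longest, differed by -0.12, -0.63 and -0.48. Of the 8 longest members 2 were below 0 in pair 1, MKI67 and ESPL1, which differed by -0.19, -0.25 and -0.16. The part of length and GC content in the fold changes of single members was not tested; with the replicate block and a per-library GC correction MKI67 was at -0.40 (adjusted p = 0.080), and again none of the 59 was called, against 4.28% of all genes.

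**Figure D4:**
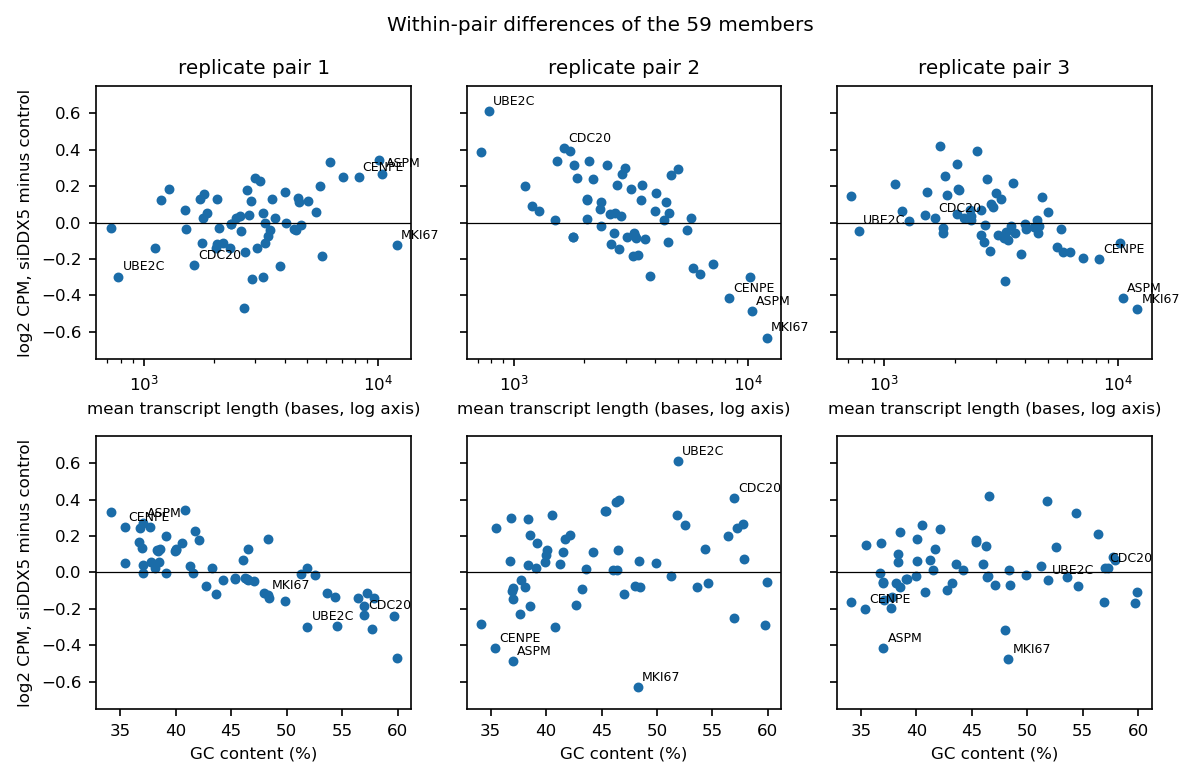
Log2 CPM of siDDX5 minus control (y axis) for the 59 genes within replicate pairs 1 to 3 (columns), against mean transcript length in bases (upper row, log axis) and GC content in percent (lower row). Most of the longest messages lie high in pair 1 and low in pairs 2 and 3.

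Transcript usage asks whether a gene shifts between its own annotated transcripts. Of the 58 members with at least 2 tested transcripts, 1 was called (edgeR diffSpliceDGE with a Simes test, Benjamini-Hochberg adjusted over 10705 genes), against 1.59% of all genes (1.21% with the replicate block). It was ECT2 (chr3:172750682-172821474, plus strand; adjusted p = 0.0343, and 0.0466 with the replicate block). The main transcript, ECT2-204 (4158 bases), held 75.2% ± 5.25 (SD, n = 3) of ECT2 counts in control and 77.1% ± 5.10 (SD, n = 3) in siDDX5. The shorter coding transcript ECT2-211 (2825 bases) held 387, 204 and 309 estimated counts in control replicates 1 to 3, and 96.9, 22.8 and 0 in siDDX5 replicates 1 to 3. Its share of ECT2 was 6.38% ± 1.42 (SD, n = 3) in control and 0.918% ± 1.109 (SD, n = 3) in siDDX5, and the groups did not overlap. The call for ECT2 was kept without siDDX5 replicate 1 (adjusted p = 0.00461) and lost when any of the other 5 libraries was left out or the filter on transcripts was changed, with an adjusted p up to 0.613. Without control replicate 1 the member called was CENPA, and without control replicate 3 it was NUSAP1. Reads are divided between overlapping transcripts by the quantifier, and the tables hold no estimate of that uncertainty.

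**Figure D5:**
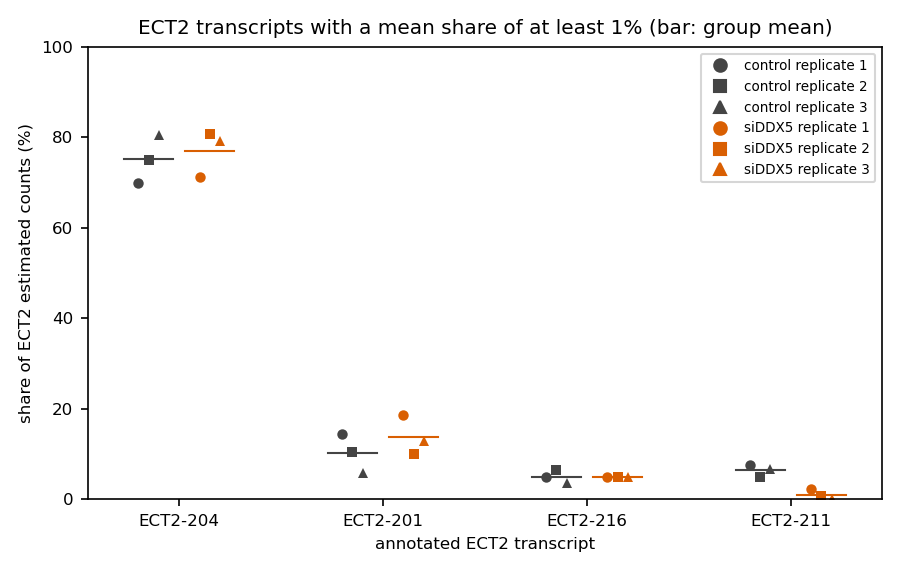
Share of ECT2 estimated counts (y axis, percent) held by each ECT2 transcript with a mean share of at least 1% (x axis), in 3 control (grey) and 3 siDDX5 (orange) libraries, with the group mean as a bar. ECT2-211 lies between 4.83% and 7.59% in control and at most at 2.15% in siDDX5.

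Across all members, the share of counts on transcripts annotated as protein coding was 94.97% ± 0.48 (SD, n = 3) in control and 95.1% ± 0.09 (SD, n = 3) in siDDX5. Transcripts annotated with a retained intron held 2.43% ± 0.41 (SD, n = 3) and 2.25% ± 0.08 (SD, n = 3). Both differences were smaller in size than the control SD but larger than the siDDX5 SD, and the groups overlapped. Transcripts annotated for nonsense-mediated decay, whose messages are marked for degradation, held 0.979%, 1.03% and 1.04% in control replicates 1 to 3 and 1.06%, 1.15% and 1.14% in siDDX5 replicates 1 to 3. Here the groups did not overlap, and the means, 1.02% ± 0.033 (SD, n = 3) and 1.12% ± 0.050 (SD, n = 3), differed by more than either SD. A two-sided exact permutation test gave p = 0.1, the smallest p that 3 against 3 libraries allow. Groups that do not overlap fix this p in advance, so the test adds nothing to the values. The same permutation test gave p = 0.9 for protein coding and p = 0.8 for retained intron transcripts. Over all joined genes the share of transcripts annotated for nonsense-mediated decay was 2.72% ± 0.14 (SD, n = 3) in control and 2.61% ± 0.12 (SD, n = 3) in siDDX5, with overlapping groups.

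A further 113 genes of mitosis, on no member list, were set beside them: the anaphase-promoting complex, entry kinases and phosphatases, other checkpoint, kinetochore, spindle, cytokinesis and condensin genes, and the MuvB and DREAM core. All 113 were tested, and edgeR called none at an adjusted p under 0.05, with 17 (15.04%) at an unadjusted p under 0.05 (13 higher, 4 lower; 11.4% of all genes). Their median log2 fold change was 0.04. With the replicate block 5 of the 113 (4.42%) were called, against 2.59% of all genes, and DESeq2 called 7 (6 higher, 1 lower), against 2.99% of the 10795 genes to which it gave an adjusted p (1.33% higher, 1.66% lower). In the MuvB and DREAM core 9 of 11 genes were below 0, with a median of -0.08 and none called in either fit. Over all tested genes 50.3% were below 0, and 42.6% of the 6195 at or above the lowest member's TPM. In the other roles most genes were above 0: 11 of 17 for the anaphase-promoting complex and 9 of 14 entry kinases and phosphatases. For checkpoint and kinetochore it was 18 of 32, for spindle and motors 14 of 20, for cytokinesis 7 of 9 and for condensin and cohesin protection 7 of 10.

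Of the 5 genes called with the block, 4 were higher in siDDX5. WEE1, the kinase that holds CDK1 inactive until entry, stood at 84.0, 107 and 95.6 CPM in control replicates 1 to 3 and 123, 162 and 129.6 CPM in siDDX5 replicates 1 to 3. CDC25A, a phosphatase that acts against that inhibition, stood at 57.2, 69.3 and 49.2 CPM in control replicates 1 to 3 and 84.3, 89.0 and 79.5 CPM in siDDX5 replicates 1 to 3. CDC23, a subunit of the anaphase-promoting complex, stood at 71.1, 73.3 and 75.4 CPM in control replicates 1 to 3 and 97.6, 100.2 and 101 CPM in siDDX5 replicates 1 to 3. The groups did not overlap for any of the 5 genes, against 26 of the 113 (23.0%) and 18% of all tested genes. The 5 were called from the same values, so this is no separate support. With the block the log2 fold changes of these 3 were 0.53 (WEE1, adjusted p = 0.0145), 0.54 (CDC25A, adjusted p = 0.0200) and 0.44 (CDC23, adjusted p = 0.0258), and without it the adjusted p was 0.195, 0.183 and 0.104. PIMREG, a mitotic regulator also known as FAM64A, stood at 54.5, 49.7 and 36.9 CPM in control replicates 1 to 3 and 65.1, 76.0 and 59.95 CPM in siDDX5 replicates 1 to 3. The fifth, PKMYT1, the other kinase that inhibits CDK1, was lower at 60.3, 47.7 and 44.3 CPM in control replicates 1 to 3 and 33.2, 39.2 and 28.7 CPM in siDDX5 replicates 1 to 3. PIMREG and PKMYT1 had block log2 fold changes of 0.52 (adjusted p = 0.0363) and -0.59 (adjusted p = 0.0369), and 0.258 and 0.2005 as adjusted p without it. WEE1 and PKMYT1, both inhibitors of CDK1, were called in opposite directions in that fit.

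For transcript usage 2 of the 108 of these genes tested (1.85%) were called, RACGAP1 and CDC27, against 1.59% of all genes. RACGAP1, the partner of KIF23 in the central spindle, had the smaller adjusted p (1.27e-13) and was called in all settings run for transcript usage. Its coding transcript RACGAP1-221 (2193 bases) held 285, 140.2 and 217 estimated counts in control replicates 1 to 3, and 0.0558, 0 and 0 in siDDX5 replicates 1 to 3. The main transcript RACGAP1-201 held 73.7% ± 0.39 (SD, n = 3) of RACGAP1 counts in control and 79.5% ± 5.53 (SD, n = 3) in siDDX5. CDC27, a subunit of the anaphase-promoting complex, has a short coding transcript, CDC27-217 (781 bases), which held 63.5, 94.1 and 66.5 estimated counts in control replicates 1 to 3 and was listed at 0 in every siDDX5 library. It made up 1.16% ± 0.39 (SD, n = 3) of CDC27 counts in control, while the main transcript CDC27-201 held 76.8% ± 0.36 (SD, n = 3) in control and 80.3% ± 2.50 (SD, n = 3) in siDDX5. The CDC27 call was lost when transcripts needed a mean of at least 50 counts, a filter that CDC27-217 does not pass, and was kept in the other alternatives run for transcript usage. In the main fit CDC27-217 and RACGAP1-221 passed the filter on transcripts through the control libraries alone, where they are high. That their calls were kept in alternatives resting on the same counts is no separate support. The division of reads between overlapping transcripts, named above for ECT2, is a limit here too.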

How the data were processed

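Messenger RNA of 3 control and 3 siDDX5 Rh30 cultures was sequenced from TruSeq stranded libraries, per the labels' protocols. The authors deposited estimated counts and TPM per transcript in the layout of kallisto, per the file headers; bcl2fastq 2.20, FastQC 0.11.8, cutadapt 1.11, kallisto 0.46.0 and the build GRCh38 (hg38) are named in the submitters' processing notes. The estimated counts had no library scaling by the authors, and reads shared by transcripts were divided among them; TPM values were deposited scaled for effective length and to a common total.

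Transcripts were joined to genes with GENCODE release 29 (GRCh38). Of 188753 transcripts, 169797 were joined by identifier, 15315 by symbol and 890 by position, and 2751 were left out; 99.59% to 99.63% of counts were joined. Counts were summed per gene, rounded, filtered with filterByExpr, scaled with TMM and tested with glmQLFit and glmQLFTest (edgeR 4.0.16, R 4.3.3), with Benjamini-Hochberg adjustment over 15224 genes and a threshold of 0.05. Transcript usage was tested with diffSpliceDGE. The steps were tested on simulated data. Alternatives used DESeq2 1.42.0, limma 3.58.1, other filters and units, a GC correction, a primary-assembly join and each library left out.

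Groups and replicate numbers came from the titles. The labels do not say what a replicate number marks. The deviations of same-numbered libraries from their group means correlated at 0.21, 0.27 and 0.58 over 15224 genes, so the numbers were taken as pairs. Whether these pairs share a batch was not tested, and the fit with the replicate block is given where it differs. P-values measure the spread between these cultures of a single line. Promoter windows are from RefSeq (GRCh38.p14) and were matched by symbol.

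The members, lists and tests were chosen with earlier results of these data known. Values in every library are given for DDX5, members called in either fit or at an unadjusted p under 0.05, the most abundant member of each role, members called for transcript usage, and up to 6 other mitosis genes called in either fit. Names outside this rule were picked with their values in view. The list of 60 entries named BUB1B again, which leaves 59.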

Additional observations from a re-analysis of the deposited data

How the results depend on the processing

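None of the 59 genes was called in the edgeR fit or in any of the 17 alternatives. At an unadjusted p under 0.05, the 3 members became 9 when the replicate block was added, 6 when it was joined by the GC correction, 1 when no filter was used, and 0 to 5 with 1 library left out. Over all genes the count moved too, from 1730 of 15224 (11.4%) to 3125 (20.5%) with the block and 3540 (23.3%) with block and GC correction. It was 2058 of 24619 with no filter, and 1244 to 2042 of 15393 to 15657 genes with 1 library left out. The median log2 fold change of the members moved to -0.023 in limma-trend on log2(TPM + 1), -0.024 on log2(TPM + 0.1), and to between -0.0096 and 0.069 with 1 library left out. The median of all genes was -0.047, -0.054 and between -0.0044 and 0.0091 in the same settings. The count of all called genes, 25 in the edgeR fit, was 323 with DESeq2, 136 with no filter, 40 with the GC correction, 2 with length-scaled TPM counts, 1 with limma-trend on either scale, 395 with the replicate block and 651 with block and GC correction. It was 0 to 15 with 1 library left out, and the 0 came without control replicate 1 and without siDDX5 replicate 1, with 1244 and 2042 genes at an unadjusted p under 0.05. DDX5 kept its direction but not its call with length-scaled TPM counts (-1.37, adjusted p = 0.0671) and limma-trend (-1.44 both with log2(TPM + 1), adjusted p = 0.0850, and with log2(TPM + 0.1), adjusted p = 0.0928); with 1 library left out it ran from -1.54 to -1.30 and lost its call without control replicate 1, siDDX5 replicate 1 or siDDX5 replicate 2. Other mitosis genes called were 7 with DESeq2, 5 with the replicate block and 7 with block and GC correction, and 0 otherwise. Members called for transcript usage were 0 with a mean of at least 50 counts and with no filter, and 0 to 1 with 1 library left out. Of the 51 members with a window, 52.9% had TTTGAA in the 250 bases before the start, against 12.4% of tested genes. On the strand of the gene in the 300-base windows, TTTGAA was in 56.9% of them, against 8.22% of tested genes. CCAAT on that strand was in 43.1%, against 25.1% of tested genes.

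Signs turned for values near 0: CENPF was at 0.18 with length-scaled TPM counts and 0.13 on both limma-trend scales, where TPX2 was at -0.017, ANLN at -0.021 with log2(TPM + 1) and -0.022 with log2(TPM + 0.1), and ECT2 at -0.019 and -0.020. With 1 library left out, CENPF ran from -0.13 to 0.081, TPX2 from -0.027 to 0.10 and SMC4 from -0.043 to 0.034. CCNB1, at 0.17 in the edgeR fit and so not near 0, ran from -0.026 to 0.28 and turned without siDDX5 replicate 2. The cause of these shifts was not tested. The replicate block changed no other call.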
